A study of Mus musculus with 4 samples.

Results

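CD8 T cells of the inflamed mouse colon were chosen here by the transcripts counted in each cell. A cell was taken as a CD8 T cell when it carried at least 2 unique molecular identifiers (UMIs, each a counted RNA molecule) of Cd3e, Cd3d and Cd3g together and at least 2 of Cd8a and Cd8b1 together, with none of Cd4, Foxp3 or Trdc. It also had to hold none of 7 genes of other lineages (Ngp, Csf3r, Csf1r, Cd79a, Ms4a1, C1qa and Xcr1), and S100a8 and S100a9 had to make up less than 0.5% of its UMIs. By this rule 645 of 43432 cells were CD8 T cells, with 62 in sample 1, 391 in sample 2, 79 in sample 3 and 113 in sample 4. The 43432 cells are those among 45229 deposited cells with at least 200 genes and under 20% mitochondrial UMIs.

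The study asked how the aryl hydrocarbon receptor (AhR), a ligand-activated transcription factor, bears on colitis in mice. Leukocytes were taken from the colonic lamina propria with magnetic beads against CD45, a surface protein of leukocytes, and their RNA was sequenced by droplet-based single-cell 3′ profiling (10x Genomics). In all 4 samples colitis had been raised by dextran sulfate sodium (DSS), a polymer toxic to the colon epithelium, at 2% in the drinking water for 7 days, with tissue collected on day 8 and 3 mice mixed into each sample, so that the spread between animals within a sample cannot be seen. The mice were 10 weeks old by the sample labels and 8 weeks old by the study's text. The study used AhR-null mice and wild type littermates, and the labels do not say which sample held which genotype, so samples are numbered as in their labels, each is reported on its own. The order of the samples is described gene by gene, and samples are neither averaged nor tested as groups.

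CD8 T cells recognise peptides on MHC class I molecules through a T cell receptor made of an alpha and a beta chain, with CD8 as the co-receptor, and kill target cells with granule proteins such as granzymes and perforin. CD8 is built either as a pair of one alpha and one beta chain (from Cd8a and Cd8b1), the form of conventional CD8 T cells, or as a pair of alpha chains, a form found on many unconventional intestinal T cells. In the gut wall such cells are known for long residence, for which the integrin genes Itgae and Itga1 are markers, and for NK-type receptors.

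The 4 libraries held 113806334, 135516016, 101579112 and 72509408 UMIs, and the CD8 T cells contributed 541175, 2388485, 721748 and 888162 of them, with medians of 8032, 5086, 7221 and 6494 UMIs per cell. Levels are given as CPM, the UMIs of a gene summed over the CD8 T cells of a sample, per 1000000 UMIs of those cells. The intervals are exact 95% Poisson intervals for levels and exact 95% binomial (Clopper-Pearson) intervals for shares of cells, and both cover counting error only. With 1 library per value and unlabelled genotypes, no p-value is given. Between 23 and 49 cell barcodes were shared by each pair of libraries, none of them by CD8 T cells of both.

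One step of the rule removed most candidates. Before the test for genes of other lineages 1712 cells remained, and 1063 of them (62.1%) carried at least 1 UMI of those genes and were dropped, 186 of them for a single UMI. The dropped cells had medians of 18290, 14558, 15374 and 16327 UMIs, above those of the cells retained in each sample, and the doublet caller Scrublet marked 300 of them, against 7 of the 645 CD8 T cells. Cd79a, a gene of B cells, was found in 705 of the dropped cells, more than any of the other 6 genes. At the edge of the rule, 205 CD8 T cells had exactly 2 UMIs of Cd8a and Cd8b1, and 281 cells that met every other condition had 1. For the Cd3 genes the same counts were 32 and 31.

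The label was checked against genes that the rule did not use. Trac, the constant region of the T cell receptor alpha chain, was found in 80.6%, 74.2%, 78.5% and 68.1% of CD8 T cells, and in 1.5%, 3.86%, 2.06% and 3.44% of B cells, whose median depths were 5252, 4000, 5320 and 4456 UMIs. At least 1 UMI of the beta chain constant genes Trbc1 or Trbc2, which share most of their sequence, was present in 98.4%, 97.2%, 98.7% and 93.8% of CD8 T cells, in 4.86% to 12.5% of B cells and in 96.2%, 96.8%, 86.8% and 87.4% of gamma-delta T cells, so it did not separate the T cell lineages. The T cell gene Cd5 had a UMI in 37.1%, 16.4%, 55.7% and 61.9% of CD8 T cells, against 64.2%, 51.9%, 79.4% and 71.3% of CD4 T cells. Cd6 had one in 45.2%, 39.4%, 81.0% and 78.8%, against 67.9%, 59.4%, 86.2% and 81.4%. In gamma-delta T cells Cd5 was found in 13.2%, 7.31%, 15.8% and 14.9%, and Cd6 in 20.8%, 10.0%, 15.8% and 16.1%. For both genes the CD8 T cells thus lay between gamma-delta and CD4 T cells of each sample. Runx3, the transcription factor of the CD8 lineage, stood at 174, 186, 226 and 286 CPM but does not set these cells apart, since CD4 T cells held 132, 150, 154 and 151 CPM and NK cells 743, 865, 520 and 749 CPM. Zbtb7b, the transcription factor of the CD4 lineage, stood at 1.85, 4.19, 2.77 and 1.13 CPM, but was not among the genes called lower than in CD4 T cells below. The NK cell gene Ncr1 did not exceed 2.25 CPM and the B cell gene Cd79b did not exceed 11.3 CPM in any sample. The alpha chain was thus counted in most but not all of the chosen cells, and these markers of CD4 T, NK and B cells were low. The rule had dropped cells with a UMI of Cd4, Cd79a or Ms4a1, so the low Zbtb7b and Cd79b may follow in part from the choice of cells. For NK cells Ncr1 is the only gene of low level given here for all CD8 T cells. Klrb1c, another NK cell gene, was 11.8 and 10.9 CPM, from 1 and 15 UMIs, in the cytotoxic-only cells of samples 1 and 2 described below.

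Genes of the gamma chain were also widespread. Tcrg-C1, Tcrg-C2 or Tcrg-C4, constant regions of the T cell receptor gamma chain that resemble each other closely, had a UMI in 25.8%, 52.2%, 43.0% and 47.8% of CD8 T cells. In CD4 T cells the same shares were 1.49%, 5.62%, 5% and 9.58%, lower in every sample, and in B cells 0.545% to 1.81%. In gamma-delta T cells they were 75.5%, 81.3%, 68.4% and 82.8%, higher than in CD8 T cells of every sample. No Trac UMI was found in 166 CD8 T cells, and 74 of these held a gamma constant UMI. As the rule demanded the absence of Trdc, the delta chain, at a limited depth, how many of those 74 cells were gamma-delta T cells was not tested. The variable segments were hardly captured, with 63 UMIs of Trbv and 61 of Trav genes in all CD8 T cells, of which Trbv12-2 gave 22 and Trav16n 15.

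Genes of other cell types were counted in the CD8 T cells of each library. The rule had limited S100a8 and S100a9 and dropped cells with a UMI of 7 genes of other lineages, so the low sums of the neutrophil genes, and in part of the other lists, follow from the choice of cells. Summed over 12 genes of B and plasma cells, of which Igkc was the most abundant in all other cells, the CD8 T cells held 303, 1693, 188 and 179 CPM, against 10443, 35788, 8794 and 6294 CPM in all other cells. Sample 2 was highest in both. The sums were 383, 275, 324 and 312 CPM for 10 neutrophil genes, led by S100a9 or S100a8, the pair that the rule capped, with Cxcr2 at 0 in samples 1, 3 and 4, and 27501, 7002, 25509 and 31431 CPM in all other cells. Monocyte and macrophage genes (12) summed to 115, 188, 205 and 224 CPM in CD8 T cells and 3696, 2488, 5331 and 4887 CPM in all other cells, led by Lyz2, Apoe or Chil3, and the dendritic cell list (9), led by the class II genes Cd74 or H2-Aa with Clec9a and Cd209a at 0 outside sample 2, to 403, 1115, 231 and 222 CPM against 10995, 10307, 4789 and 3854 CPM. Stromal and epithelial genes (10) reached 150, 186, 274 and 136 CPM against 583, 949, 791 and 1531 CPM, a smaller gap than for the other lists. They were led in CD8 T cells by Pecam1 or Dcn, with Cdh5 at 0 in every sample. Pecam1 is not particular to stroma here, at 109, 51.1, 94.2 and 87.8 CPM in CD8 and 472, 376, 458 and 411 CPM in CD4 T cells. Of the Dcn UMIs 82 of 86 in sample 2 and 71 of 105 in sample 3 came from 1 cell. The part of RNA from other cell types in the differences given next was not tested.

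CD8 T cells were most frequent in sample 2. Of the cells that passed the filters they made up 0.564% (0.433% to 0.723%) for sample 1, 2.96% (2.67% to 3.26%) for sample 2, 0.708% (0.561% to 0.881%) for sample 3 and 1.40% (1.16% to 1.68%) for sample 4, with the intervals in parentheses. Of all cells with at least 2 Cd3 UMIs they were 4.48%, 7.71%, 4.80% and 6.56%, so the samples kept the same order with that denominator and lay closer together. Since the rule chose the cells and dropped 60.3%, 64.0%, 56.1% and 59.6% of candidates by genes of other lineages, these shares describe the rule's cells, not all CD8 T cells of the tissue.

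**Figure D1:**
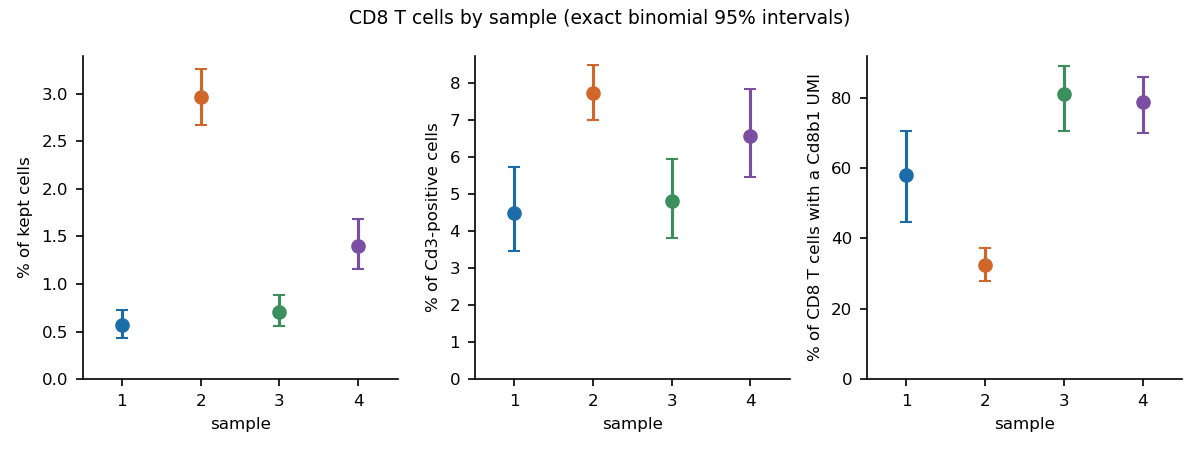
CD8 T cells as a percentage of all cells that passed the filters (left), as a percentage of cells with at least 2 Cd3 UMIs (middle), and the percentage of CD8 T cells with a Cd8b1 UMI (right), by sample. Points are values and bars exact binomial 95% intervals. Sample 2 is highest in the left panel at 2.96% and lowest in the right panel at 32.5%.

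The CD8 T cells were first set against CD4 T cells of the same sample (134, 160, 160 and 167 cells, chosen by at least 1 Cd4 UMI and no Cd8a or Cd8b1 UMI, with the other conditions the same). A gene was called where its CPM differed at least 2-fold with Poisson intervals apart, in the same direction, in all 4 samples. This held for 130 of 9239 genes tested (1.41%), with 61 higher in CD8 T cells (0.660%) and 69 lower (0.747%). Without sample 1 the count was 214. With Cd8b1-positive CD8 T cells alone it was 76, with 27 higher and 49 lower, so the number of higher genes fell more. The higher genes were led by Ccl5, a chemokine of T and NK cells, at 1905, 9015, 4683 and 4586 CPM in CD8 and at 251, 579, 470 and 584 CPM in CD4 T cells, which is 7.58-, 15.6-, 9.96- and 7.86-fold. The lowest CD8 sample lay above the highest CD4 sample, for a gene picked by its rank. The gene is annotated at chr11:83525778-83530518 on the minus strand of build GRCm38, and Gzma at chr13:113093825-113100981, also on the minus strand.

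Cytotoxic granule genes were among those called higher in CD8 than in CD4 T cells. Gzma, granzyme A, stood at 1373, 6070, 1458 and 1091 CPM in CD8 and at 22.5, 383, 155 and 169 CPM in CD4 T cells. Sample 2 was far above the others, and in sample 1 the 743 Gzma UMIs came from 10 of 62 cells, with 506 of them in a single cell. A Gzma UMI was found in 16.1%, 71.6%, 49.4% and 40.7% of CD8 T cells and in 2.18%, 16.1%, 3.44% and 4.38% of B cells. Both were highest in sample 2. For Ccl5 the shares of B cells were 8.17%, 29.4%, 12.4% and 8.75%. Nkg7, a protein of cytotoxic granules, was measured at 613, 772, 518 and 521 CPM against 133, 156, 138 and 132 CPM, with little spread between samples. Of the 9 cytotoxic granule genes that could be tested, Ctsw, Gzma and Nkg7 were higher, none was lower, and the median log2 ratio was 1.08 beside 0.02 over all genes tested. Gzmb, granzyme B, was 322, 1022, 531 and 548 CPM in CD8 and 247, 82.8, 132 and 144 CPM in CD4 T cells, and in sample 1 the ratio stayed under 2-fold. Perforin (Prf1) was low in CD8 T cells, at 22.2, 43.5, 30.5 and 28.1 CPM.

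Some receptor and adhesion genes of tissue lymphocytes were called higher than in CD4 T cells as well. Cd7, a surface protein of T and NK cells, was 460, 814, 220 and 272 CPM in CD8 against 46.9, 53.3, 24.1 and 34.9 CPM in CD4 T cells. The NK-type receptor gene Klrd1 (CD94) stood at 325, 504, 127 and 141 CPM against 18.7, 54.4, 22.9 and 21.4 CPM, the CD8 values of samples 1 and 2 lying above those of samples 3 and 4. In the residency list 3 of 9 genes tested were higher, Itgae, Itga1 and Xcl1, and none was lower, with a median log2 ratio of 0.27. The list summed to 2108, 3975, 1731 and 2371 CPM in CD8 and 1638, 2272, 1652 and 2156 CPM in CD4 T cells, close together in samples 3 and 4. In CD8 T cells with a Cd8b1 UMI it summed to 1370, 2820, 1617 and 2267 CPM. These sums lay below those of CD4 T cells in samples 1 and 3 and above them in samples 2 and 4. Gamma-delta T cells held 3912, 4048, 3846 and 4321 CPM and NK cells 4694, 4970, 2943 and 3733 CPM. Both lay above the CD8 T cells of every sample. Itgae, the alpha chain of the integrin that binds E-cadherin, was 105, 259, 70.7 and 141 CPM against 14.1, 15.9, 18.7 and 4.98 CPM. Its ligand gene Cdh1 (E-cadherin), also called, was 61.0, 74.5, 67.9 and 100 CPM against 7.5, 13.6, 1.20 and 18.5 CPM.

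The 10 genes with the largest differences also held Gm44174, Bend4, Tcrg-C2, Klre1 and Ctsw. Among 14 NK receptor genes tested Klrc1, Klrc2 and Klrd1 were higher, reads of Klrc1 and Klrc2 being open to exchange between these close relatives, and the list's median log2 ratio was 1.31. The list summed to 3441, 4862, 1144 and 1625 CPM in CD8 and 745, 1028, 729 and 802 CPM in CD4 T cells. In CD8 T cells with a Cd8b1 UMI the sums were 1049, 2531, 867 and 1236 CPM, nearer to those of CD4 T cells. Of 12 inhibitory receptor and exhaustion genes Cd160 and Nr4a2 were higher and Ctla4 was lower. Ctla4, an inhibitory receptor, was nevertheless present in CD8 T cells, at 259, 398, 496 and 482 CPM against 638, 972, 1088 and 1413 CPM in CD4 T cells.

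Genes of helper functions were among the 69 that were lower in CD8 than in CD4 T cells. Cd40lg, the ligand by which helper T cells stimulate B cells, was 1.85, 5.44, 4.16 and 1.13 CPM in CD8 and 87.2, 124, 86.7 and 125 CPM in CD4 T cells. Tnfsf8 (CD30 ligand) was 20.3, 23, 16.6 and 32.7 CPM against 364, 558, 777 and 912 CPM, and Tnfrsf4, the co-stimulatory receptor OX40, 0, 8.37, 6.93 and 20.3 CPM against 138, 212, 380 and 283 CPM. Maf, a transcription factor of helper T cells, was 11.1, 31.8, 29.1 and 19.1 CPM against 305, 495, 675 and 989 CPM. In each of these 4 genes the highest CD8 value lay below the lowest CD4 value. They are the first 4 of the 69 by their smallest difference over samples, so this gap follows largely from the ranking.

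The cytokine genes Il10 and Il17a were lower as well. Il10 stood at 0, 3.77, 11.1 and 3.38 CPM in CD8 T cells, and Il17a was 0 in 3 samples and 8.37 CPM in sample 2, from 4 cells. Plcb4, Nav2, Eea1, Izumo1r and Pecam1 complete the 10 leading genes of this direction. Of 11 effector cytokine and chemokine genes tested Ccl5 and Xcl1 were higher and Il10 and Il17a lower, of 14 transcription factors Maf alone was called, and of 10 genes of other lymphocytes Tcrg-C2 and Tcrg-C4 were higher and Cd40lg, Il1rl1 and Il23r lower. Ifng was not called, at 49.9, 41.0, 51.3 and 82.2 CPM in CD8 and 1095, 44.2, 56.0 and 49.8 CPM in CD4 T cells, where sample 1 alone was high. In the lists for naive cells, gut homing and chemokine receptors, cell cycle, interferon response, immediate early response, heat shock, the AhR pathway and polyamines no gene was called in either direction against CD4 T cells.

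**Figure D2:**
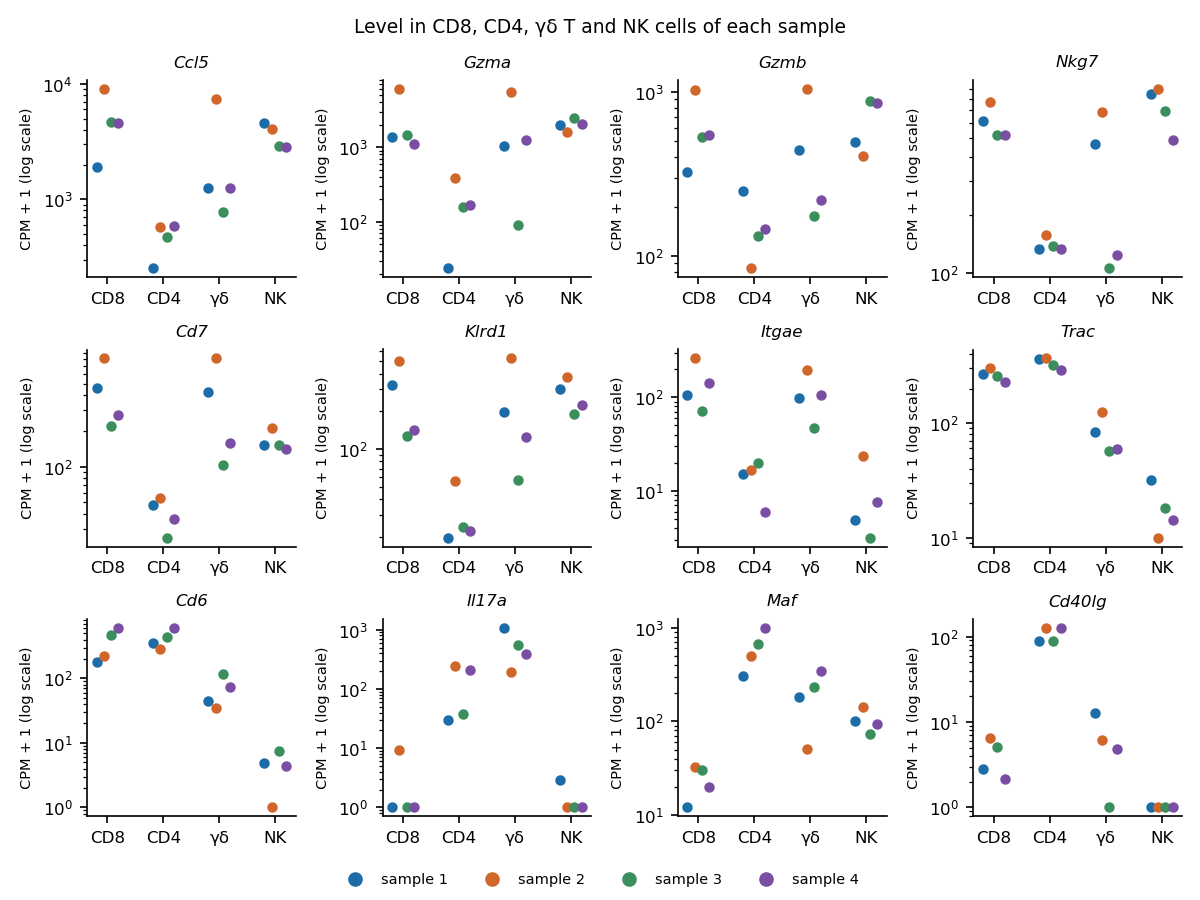
Level of 12 genes, as CPM + 1 on a log scale, in CD8, CD4, gamma-delta (γδ) T and NK cells, with one point per sample. Ccl5, Gzma, Nkg7, Cd7, Klrd1 and Itgae lie higher in CD8 than in CD4 T cells of every sample, and Maf and Cd40lg lower, while Cd6 and Trac separate CD8 T cells from γδ T and NK cells.

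Gamma-delta T cells (53, 219, 38 and 87 cells) were chosen by a Trdc UMI, with no condition on Cd8a or Cd8b1. They held 31, 427, 11 and 39 Cd8a UMIs, with a median of 1 per cell in sample 2 and 0 in the others, so part of them were Cd8a-positive. Against them 61 of 8914 genes were called (0.684%), with 9 higher in CD8 T cells (0.101%) and 52 lower (0.583%). The 9 were Cd6, Trac, Gm8369, Atp8a2, Pclaf, Cd5, BE692007, Kif15 and Ms4a6b, of which Kif15 and Ms4a6b were not called without the cell richest in them. The number higher was 16 without sample 1, 27 without sample 2 and 5 when a single Cd8 UMI sufficed. Cd6, an adhesion receptor of T cells, was 179, 221, 466 and 603 CPM in CD8 against 44.3, 33.2, 115 and 71.3 CPM in gamma-delta T cells. Cd5, an inhibitor of T cell receptor signals, was 113, 61.1, 186 and 252 CPM against 52.0, 22.1, 42.7 and 42.8 CPM. For both genes samples 3 and 4 were the highest among the CD8 T cells. Trac reached 227 to 302 CPM against 55.9 to 125 CPM, and 21.1% to 42.9% of gamma-delta T cells carried a Trac UMI.

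Il17a, Cd163l1 and Il23r led the genes lower in CD8 T cells than in gamma-delta T cells. Of 12 genes of other lymphocytes tested, Cd163l1, Il23r, Tcrg-C1 and Trdv4 were lower and none was higher. Il17a was 1067, 193, 542 and 381 CPM in gamma-delta T cells. The scavenger receptor gene Cd163l1 was 0, 0.419, 2.77 and 0 CPM in CD8 and 495, 59.8, 299 and 451 CPM in gamma-delta T cells. Il23r, the receptor for interleukin-23, was 7.39, 22.6, 81.7 and 0 CPM against 745, 181, 542 and 687 CPM, the value of sample 3 coming from 1 cell. Nav2 and Pde5a followed. The gamma-delta levels of all 3 genes were lowest in sample 2, and without sample 2 the number called was 165, beside 151 against CD4 T cells without that sample. No cytotoxic granule gene was called, and Gzma was 1049, 5548, 88.8 and 1263 CPM in gamma-delta T cells, within 2-fold of CD8 T cells in samples 1, 2 and 4 and lower in sample 3.

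NK cells (80, 39, 63 and 44 cells without a Cd3 UMI, with at least 2 UMIs of Ncr1 and Klrb1c) differed in 229 of 8261 genes (2.77%), 63 higher in CD8 T cells (0.763%) and 166 lower (2.01%). Higher were foremost Themis, Cd6, Sntb1, Cd5 and Trac. Themis, a protein of T cell receptor signalling, was 331, 530, 1160 and 1038 CPM in CD8 T cells and at most 4.46 CPM in NK cells. Of the 17 genes of the T cell receptor and co-receptor list Bcl11b, Cd5, Cd6, Lat, Trac and Trbc2 were higher and none was lower, with a median log2 ratio of 1.10 beside 0.15 over all genes tested.

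Of 9 cytotoxic granule genes tested Prf1 was lower and Gzmk higher in CD8 T cells than in NK cells, with a median log2 ratio of -0.32, and of 9 effector cytokine and chemokine genes 5 were lower. The cytotoxic list summed to 6949, 5974, 6687 and 6928 CPM in NK cells, and only in sample 2 did the CD8 T cells exceed it, with 10257 CPM. Prf1 was 516, 419, 505 and 673 CPM in NK cells, against the 22.2 to 43.5 CPM of CD8 T cells. Ifng (interferon gamma) was 2268, 317, 328 and 729 CPM, and the chemokine genes Ccl3, Ccl4 and Xcl1 were lower in CD8 T cells as well. Eomes, a transcription factor of NK and memory CD8 T cells, was 20.3, 7.12, 48.5 and 94.6 CPM in CD8 and 206, 232, 201 and 212 CPM in NK cells. The leading genes of this direction were Klra4, Klrb1b, Klra8, Irf8 and Eya1, of which Klra4 and Klra8 belong to the Ly49 family, whose members are so alike that reads may be assigned to the wrong one. Gzmk was at 33.3, 38.1, 201 and 162 CPM against 5.84, 4.46, 25.7 and 9.95 CPM.

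The CD8 T cells were not uniform in their co-receptor. The share with a Cd8b1 UMI was 58.1% for sample 1 (44.8% to 70.5%), 32.5% for sample 2 (27.9% to 37.4%), 81.0% for sample 3 (70.6% to 89.0%) and 78.8% for sample 4 (70.1% to 85.9%). After each cell was thinned to 1000 UMIs the shares were 21%, 12.0%, 20.3% and 21.2%, and among the thinned cells with any Cd8 UMI left 46.4%, 21.6%, 43.2% and 42.1%. Sample 2 was lowest under each of the 3 counts, but after thinning of all cells its interval (8.97% to 15.7%) overlapped those of the other samples. Among the thinned cells with a Cd8 UMI left, its interval (16.3% to 27.6%) just reached those of samples 1 (27.5% to 66.1%) and 3 (27.1% to 60.5%). In B cells Cd8b1 was found in 0.182%, 0.859%, 0% and 0.938% of cells. Because the rule used both genes, a cell without a Cd8b1 UMI may still express the gene below detection.

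Cells with Cd8a UMIs only were set against cells with a Cd8b1 UMI in samples 1, 2 and 4, which held 26, 264 and 24 of the former and 36, 127 and 89 of the latter. Sample 3 had 15 Cd8a-only cells, under the minimum of 20. Median depths were 8482, 5104 and 6437 UMIs in Cd8a-only cells and 7220, 5068 and 6567 UMIs in Cd8b1-positive cells. Of 7131 genes 42 were called (0.589%), 29 higher in Cd8a-only cells (0.407%) and 13 lower (0.182%).

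Signalling adaptors and NK-type receptors were among the 29. Fcer1g, the signalling chain of Fc and some NK receptors, was 719, 822 and 245 CPM in Cd8a-only and 50.1, 103 and 53.8 CPM in Cd8b1-positive cells of samples 1, 2 and 4, and Tyrobp (DAP12), a separate signalling chain of NK-type receptors, 335, 443 and 159 CPM against 50.1, 67.3 and 26.2 CPM. Both genes are abundant in myeloid cells, and Fcer1g had a UMI in 23.1%, 26.3% and 10.6% of B cells of these samples, as against 80.8%, 82.2% and 41.7% of Cd8a-only and 33.3%, 23.6% and 13.5% of Cd8b1-positive cells. Cd8b1-positive cells were thus near the B cell share and Cd8a-only cells above it.

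Lyn, a Src-family kinase, was 806, 1099 and 716 CPM in Cd8a-only against 16.7, 193 and 109 CPM in Cd8b1-positive cells. Myo1e, an unconventional myosin, was 665, 1050 and 955 CPM against 13.4, 172 and 156 CPM. Kit, the receptor for stem cell factor, was 484, 240 and 67.3 CPM against 26.7, 38.5 and 9.66 CPM. In each of the 3 genes every Cd8a-only value lay above the Cd8b1-positive value of its own sample by more than 5-fold. Ikzf2, the transcription factor Helios, was 4051, 3396 and 2056 CPM against 485, 1565 and 520 CPM.

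Klra5, which led the ranking, together with Tmcc3 and Lrmda, rested on few cells in part, since its 28 UMIs in sample 1 came from a single cell. Without the cell richest in each gene 33 of the 42 calls remained, and Klra5, Klra6, Klra7, Klra3, Aoah, Car2, Irf8, S1pr1 and S100a6 were lost. Of the 12 genes tested in the NK receptor list 5 were higher in Cd8a-only cells (Fcer1g, Ikzf2, Klra3, Klra7 and Tyrobp), with a median log2 ratio of 1.79, beside a median of 0.00 over all genes tested. With only cells that had a Trac UMI 25 of the 42 genes were called again. With all cells thinned to 1000 UMIs before the split 1 of the 42 was, and 2 genes were called in all. Without sample 1, 2 or 4 the number called was 77, 64 or 119.

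In the naive and recirculation list Lef1 and S1pr1, 2 of 8 genes tested, were lower in Cd8a-only cells and none was higher, with a median log2 ratio of -1.14. Lef1, a transcription factor of naive T cells, was 625, 349 and 333 CPM in Cd8b1-positive and 157, 120 and 110 CPM in Cd8a-only cells. S1pr1, the receptor by which lymphocytes leave tissue, was 120, 57.7 and 38.6 CPM against 20.7, 13.5 and 0 CPM. Ly6c2, a surface protein of memory CD8 T cells and monocytes, was 237, 107 and 93.8 CPM against 41.3, 19.9 and 18.4 CPM, and Lgals1 and Ms4a4b complete the leading 5, of which Ly6c2, Lgals1 and Ms4a4b are not in that list. For Lef1, S1pr1 and Ly6c2 no Cd8a-only value reached any Cd8b1-positive value, though the call of S1pr1 was lost without the cell richest in it. These genes are among the leading 5, so this gap follows in part from the ranking.

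Gamma constant transcripts divided the cells differently in the samples. In sample 1 a UMI of Tcrg-C1, Tcrg-C2 or Tcrg-C4 was found in 61.5% of Cd8a-only cells and in 0 of 36 Cd8b1-positive cells, which allows a share of up to 9.74%. In sample 2 the shares were 59.8% and 36.2%, in sample 3 46.7% and 42.2%, and in sample 4 58.3% and 44.9%. The gap between the kinds of cell was therefore widest in sample 1. Trac was found in 92.3%, 73.5%, 73.3% and 70.8% of Cd8a-only cells, so Cd8a-only cells did not lack the alpha chain.

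**Figure D3:**
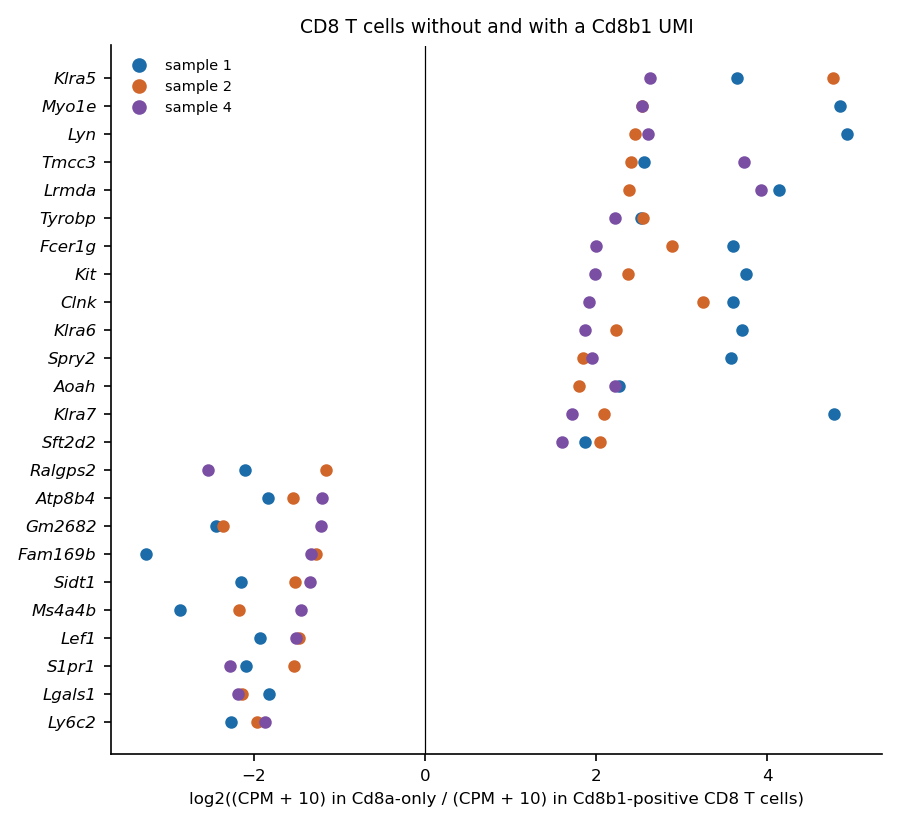
Log2 ratio of (CPM + 10) in Cd8a-only to (CPM + 10) in Cd8b1-positive CD8 T cells for the first 14 genes called higher and the first 10 called lower, one point per sample for samples 1, 2 and 4. All points of the upper genes lie right of 0 and all of the lower genes left of it, as the call rule requires; sample 1 is the most distant for Myo1e and Lyn.

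Cytotoxic and naive cell genes were summed in each CD8 T cell. A sum of at least 2 UMIs of Gzma, Gzmb, Gzmk, Prf1, Nkg7 and Ccl5 was present in 74.2%, 94.9%, 97.5% and 92.9% of CD8 T cells, and a sum of at least 2 UMIs of the naive cell genes Lef1, Ccr7 and Tcf7 in 82.3%, 32.2%, 54.4% and 47.8%. At 1000 UMIs per cell the cytotoxic shares were 35.5%, 83.1%, 91.1% and 82.3% and the naive shares 27.4%, 7.93%, 10.1% and 9.73%. In B cells the cytotoxic sum was reached by 2.86%, 17.6%, 6.87% and 6.25% of cells, and after thinning by 0.864%, 1.97%, 1.72% and 0.940%, below the CD8 T cells of every sample. The naive sum was reached by 49.2%, 38.4%, 40.9% and 49.1% of B cells, and after thinning by 5.77%, 5.09%, 7.56% and 6.90%, so only in sample 1 did the interval of the CD8 T cells lie above the share of B cells in both counts. Most of the B cell share came from Ccr7, which B cells also express, and without it the shares were 4.31%, 3.86%, 3.78% and 5%. Sample 1 had the smallest cytotoxic and the largest naive share in both counts. These classes are ranges of a per-cell sum and not cell types, and 107 cells had a naive sum of 1 and 59 one of 2.

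By both sums at full depth, 41 cells were naive only, 366 cytotoxic only, 233 both and 5 neither. No sample held 20 naive-only and 20 cytotoxic-only cells. With a lower minimum of 10 cells, chosen after seeing the data, samples 1 (16 and 11 cells) and 2 (18 and 263 cells) could be compared, and 130 of 4951 genes were called in both (2.63%), 43 higher in naive-only cells (0.869%) and 87 lower (1.76%). In the naive and recirculation list 3 of 4 genes tested were higher in naive-only cells (Klf2, S1pr1 and Satb1) and none was lower. Klf2, a transcription factor that keeps T cells in circulation, was 1016 and 782 CPM in naive-only against 177 and 162 CPM in cytotoxic-only cells. S1pr1, a target of Klf2, was 143 and 174 CPM against 23.6 and 7.27 CPM. Both genes lie outside the 2 sums, and neither overlapped between the classes. Il7r, the interleukin-7 receptor chain of the same list, was not called, at 82.8 and 78.2 CPM against 248 and 74.8 CPM.

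The leading genes in naive-only cells were Cmah, Fgf13, Myb, Fam169b and Rasa3. Cmah, an enzyme of sialic acid synthesis, was 482 and 226 CPM against 0 and 10.9 CPM. In the opposite direction Myo16, Fasl, Nebl, Serpinb9 and Tnfrsf9 led. Fasl, the death ligand of cytotoxic cells, was 0 and 0 CPM in naive-only against 82.6 and 98.8 CPM in cytotoxic-only cells, but rested on 7 UMIs in sample 1. There Myo16, Nebl, Serpinb9 and Tnfrsf9 rested on 11, 13, 11 and 16 UMIs of cytotoxic-only cells. The calls of this comparison were not repeated without the richest cell. Tnfrsf9, the co-stimulatory receptor 4-1BB, was 15.1 and 26.1 CPM against 189 and 357 CPM. Of 11 NK receptor genes tested 6 were lower in naive-only cells (Fcer1g, Klra7, Klrc1, Klrd1, Klrk1 and Zbtb16), and of 9 cell cycle genes 4 (Hmgb2, Mcm6, Mki67 and Stmn1).

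**Figure D4:**
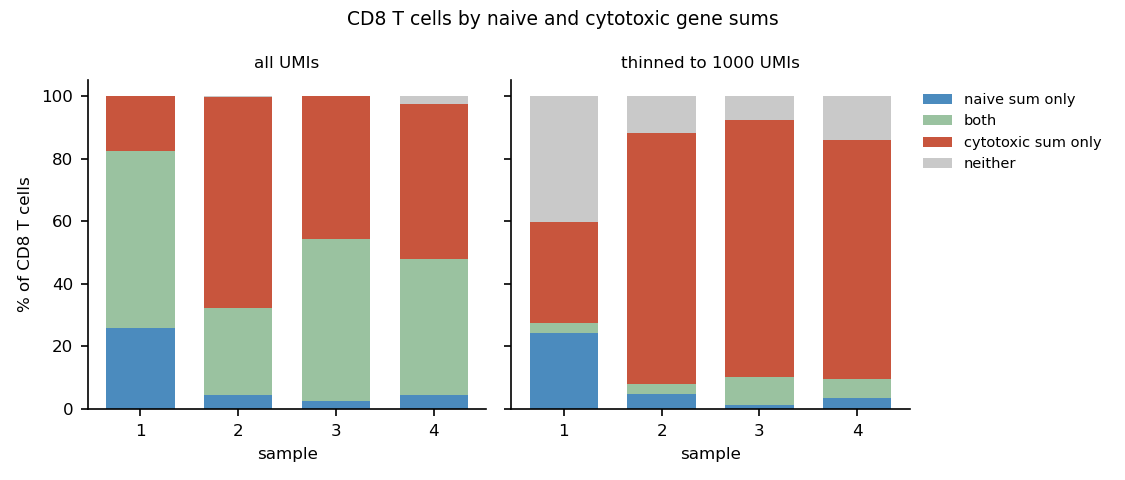
Percentage of CD8 T cells by sample with at least 2 UMIs of the naive genes only, of the cytotoxic genes only, of both or of neither, with all UMIs (left) and after thinning each cell to 1000 UMIs (right). Sample 1 holds the largest naive-only share in both panels, 25.8% and 24.2%, and the smallest cytotoxic-only share.

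Levels in CD8 T cells varied between samples more for some genes than for most. Among 2500 genes that reached 100 CPM in any sample and 50 UMIs in total, the median range over the 4 samples was 0.53 on the log2(CPM + 10) scale, and 68 genes had a range of at least 2. The 10 with the largest range were Ccdc88a, Frmd5, Dcn, Igha, Mt2, Igkc, Jchain, Ttc39c, Fstl4 and Gm156. Several reflect few cells: 203 of 211 Ccdc88a UMIs in sample 3 came from 1 cell, 71 of 105 Dcn UMIs in sample 3 from 1 cell, and all 74 Fstl4 UMIs in sample 3 from 1 cell. Igkc, Igha and Jchain are immunoglobulin genes of plasma cells, with Igkc at 73.9, 751, 65.1 and 49.5 CPM in CD8 T cells and at 4634, 17865, 4153 and 2851 CPM in all other cells, sample 2 being highest in both.

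Frmd5 and Ttc39c were spread over many cells of the samples in which they were high. Frmd5, a protein of the cell cortex, was 9.24, 439, 43.0 and 31.5 CPM, with 107 cells of sample 2 holding a UMI and 2, 1 and 2 cells of the others. Ttc39c was 9.24, 33.1, 158 and 216 CPM, found in 4, 52, 40 and 62 cells. Frmd5 was highest in sample 2 and Ttc39c in samples 3 and 4, with intervals apart from those of samples 1 and 2. Without the richest cell of each gene 6 of the 10 remained, and Klra5, Gzma, Klra7 and Ikzf2 entered.

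For some genes of the lists the highest values lay in samples 1 and 2. Ikzf2 was 2079, 2758, 321 and 803 CPM in CD8 T cells and 217, 601, 202 and 302 CPM in all other cells. Fcer1g was 349, 571, 67.9 and 88.9 CPM, while all other cells held 1077, 607, 909 and 600 CPM, and its share of CD8 T cells in sample 3, 25.3%, was next to the 24.7% of B cells. Kit was 231, 170, 24.9 and 20.3 CPM, and Klra7, again a Ly49 gene, 118, 168, 15.2 and 10.1 CPM. For these 4 genes the Poisson intervals of samples 1 and 2 did not reach those of samples 3 and 4. They are examples from the lists, and the share of all genes with such a split of the samples is not given here or below. All 4 were also called higher in Cd8a-only cells (Klra7 not without the cell richest in it), and the share of Cd8a-only cells was higher in samples 1 and 2 at full depth, but in sample 2 alone after thinning. Within Cd8a-only cells alone Ikzf2 was 4051, 3396, 1317 and 2056 CPM and Klra7 265, 233, 25.0 and 36.7 CPM, the values of sample 3 resting on 15 cells. Within Cd8b1-positive cells sample 1 was not above sample 4 in 3 of the 4 genes. Ikzf2 was 485, 1565, 123 and 520 CPM there, Fcer1g 50.1, 103, 21.6 and 53.8 CPM, and Klra7 0, 46.9, 13.3 and 4.14 CPM, while Kit was 26.7, 38.5, 8.31 and 9.66 CPM.

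For other genes the highest values lay in samples 3 and 4. Cd6 was 179, 221, 466 and 603 CPM, and Cd28, the co-stimulatory receptor, 660, 309, 1174 and 1339 CPM. Gzmk, granzyme K, was 33.3, 38.1, 201 and 162 CPM and was found in 12.9%, 14.6%, 65.8% and 53.1% of CD8 T cells, against at most 0.429% of B cells. The inhibitory receptor gene Pdcd1 (PD-1) was 3.70, 7.12, 33.3 and 43.9 CPM. Klrc1, which encodes the inhibitory receptor NKG2A, was 73.9, 63.6, 172 and 215 CPM, and Tbx21, the transcription factor T-bet, 61.0, 153, 169 and 316 CPM, with sample 2 near sample 3. Within Cd8b1-positive cells alone Gzmk was 50.1, 66.1, 218 and 178 CPM and Cd6 291, 451, 525 and 640 CPM, so the order of samples was the same for Gzmk while the Cd6 values of samples 2 and 3 drew closer. Cd28 had a UMI in 91.7%, 52.8%, 100% and 86.5% of Cd8b1-positive cells, where sample 1 was not below sample 4.

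Other genes set sample 2 apart. Rgs1, a regulator of G protein signals in resident lymphocytes, was 540, 1555, 435 and 625 CPM, and Gzmb 322, 1022, 531 and 548 CPM. Itga1, which binds collagen, was 107, 374, 180 and 298 CPM. Sample 2 was the highest in each, with intervals apart from every other sample for Rgs1, Gzmb and Itga1. Sample 1 was the highest in the naive list, whose 9 genes summed to 4437, 1967, 2300 and 2227 CPM and were led by Satb1, and for Ccr7, the lymph node homing receptor, which was 310, 73.3, 129 and 91.2 CPM. Within Cd8b1-positive cells the naive list summed to 6259, 2934, 2416 and 2253 CPM. Within Cd8a-only cells it summed to 2182, 1450, 1717 and 2111 CPM, where the intervals of samples 1 and 4 overlapped.

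**Figure D5:**
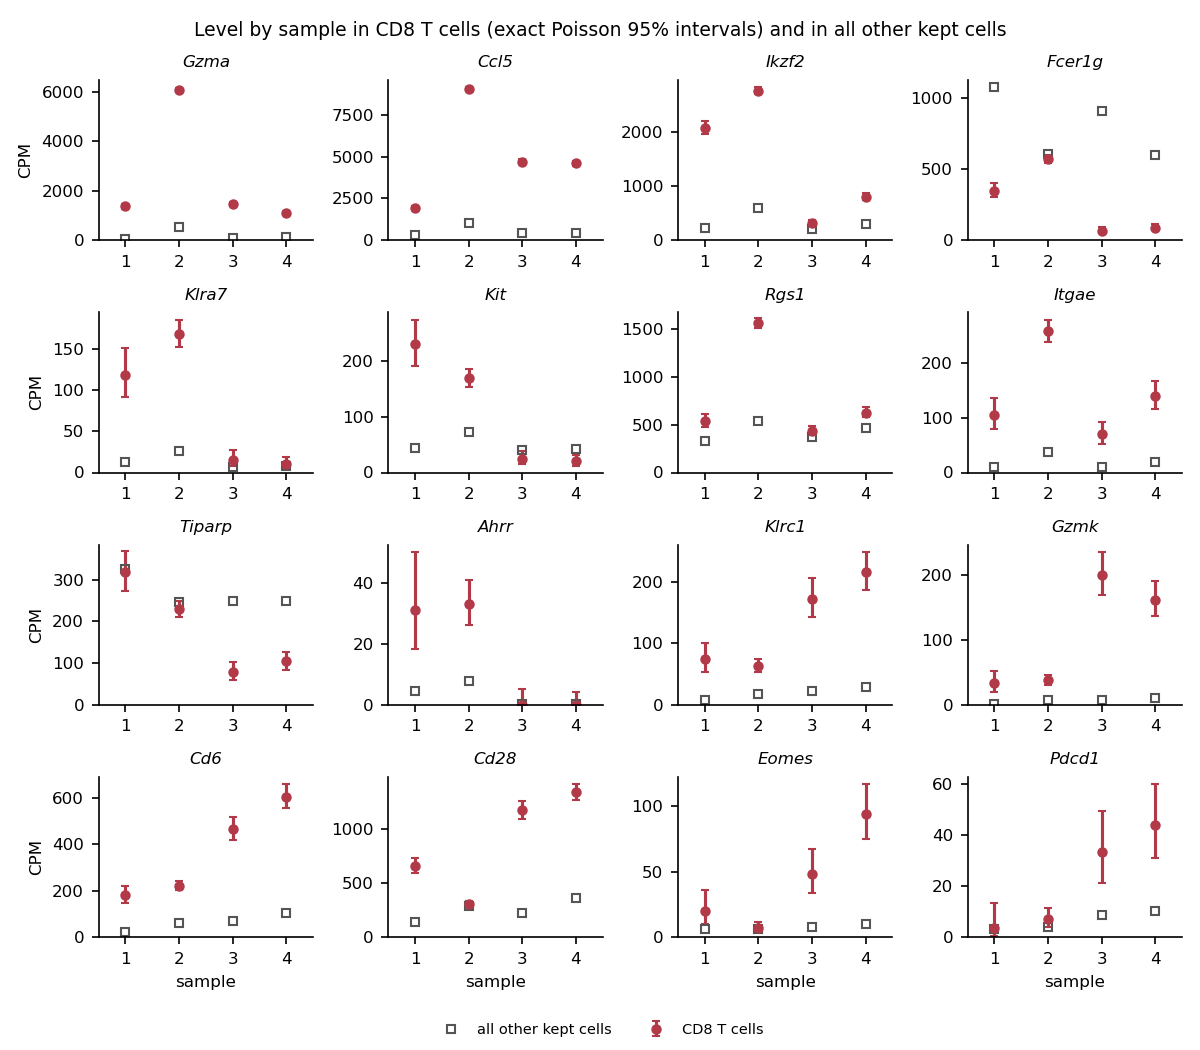
Level in CPM of 16 genes in CD8 T cells (filled circles, bars exact Poisson 95% intervals) and in all other cells that passed the filters (open squares), by sample. Ikzf2, Fcer1g, Klra7 and Kit stand higher in samples 1 and 2, Klrc1, Gzmk, Cd6, Eomes and Pdcd1 in samples 3 and 4, and Gzma and Rgs1 in sample 2.

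The AhR pathway list was examined because the study concerned this receptor. AhR pairs with ARNT in the nucleus, binds DNA at sites with the core GCGTG, and induces Ahrr, its repressor, and Tiparp, an ADP-ribosyltransferase that dampens its signal. The 250 bases before the start of each gene are shown because Ahrr and Tiparp differed most between samples among the genes of this list. The sequences are from RefSeq, build GRCm38.p6, on the strand of the gene, for Ahrr chr13:74292332-74292581 (minus strand) and for Tiparp chr3:65528197-65528446 (plus strand), and capitals mark GCGTG or, for the opposite strand, CACGC.
Ahrr: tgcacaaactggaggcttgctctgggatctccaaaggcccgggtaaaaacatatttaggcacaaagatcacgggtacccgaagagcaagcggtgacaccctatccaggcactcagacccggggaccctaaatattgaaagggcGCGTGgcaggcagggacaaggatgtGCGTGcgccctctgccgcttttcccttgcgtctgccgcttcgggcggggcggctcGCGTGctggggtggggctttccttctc
Tiparp: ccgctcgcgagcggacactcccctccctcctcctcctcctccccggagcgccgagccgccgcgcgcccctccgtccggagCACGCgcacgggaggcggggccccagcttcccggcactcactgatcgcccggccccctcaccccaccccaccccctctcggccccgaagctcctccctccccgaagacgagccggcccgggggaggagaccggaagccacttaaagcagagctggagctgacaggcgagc
The Ahrr stretch held 3 GCGTG on the printed strand and none on the other, and the Tiparp stretch 1 on the other strand. Of 32851 promoter stretches of the same length 28.2% held at least 1 such motif on either strand and 2.77% at least 3, so a single match is common. A match describes the letters and not a bound site.

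Ahr itself was 140, 187, 70.7 and 109 CPM in CD8 T cells and had a UMI in 38.7%, 41.7%, 20.3% and 36.3% of them, and in 19.5%, 22.3%, 21.6% and 17.5% of B cells. The share of sample 3 was near that of its B cells, and those of samples 1, 2 and 4 were above. Because 3′ counts of a gene do not show whether a transcript is intact, and because no label gives the genotype, these values say nothing of the Ahr allele.

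Ahrr was 31.4, 33.1, 0 and 0 CPM in CD8 T cells. It was found in 8 of 62 and 52 of 391 cells of samples 1 and 2, and in 0 of 79 and 0 of 113 cells of samples 3 and 4, where the upper bounds of the level were 5.11 and 4.15 CPM. In gamma-delta T cells it was 17.3, 33.2, 0 and 0 CPM, in CD4 T cells 5.62, 22.7, 0 and 0.712 CPM, and in all other cells together 4.71, 7.71, 0.370 and 0.341 CPM. In each of these kinds of cell samples 1 and 2 held the highest values. Tiparp was 318, 230, 79.0 and 104 CPM in CD8 T cells, with intervals of samples 1 and 2 apart from those of samples 3 and 4. In all other cells it was 326, 246, 250 and 250 CPM, where samples 2, 3 and 4 hardly differed, and in B cells 127, 143, 173 and 163 CPM. NK cells held 265, 290, 96.4 and 66.3 CPM, CD4 T cells 182, 210, 91.5 and 76.9 CPM, and gamma-delta T cells 279, 292, 112 and 84.3 CPM. The highest values thus lay in samples 1 and 2 in CD8, CD4 and gamma-delta T cells and in NK cells, and not in B cells or in all other cells together.

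The remaining members moved less or were absent. Arnt was 248, 178, 98.4 and 167 CPM. Ptges3, a chaperone partner of AhR, was 163, 150, 143 and 140 CPM, with overlapping intervals. Cyp1a1 and Cyp1b1, enzymes that AhR induces in many cells, had no UMI in any CD8 T cell of these samples, and Nqo1 did not exceed 1.39 CPM. Within the CD8 T cells Ahrr was 66.1 and 42.4 CPM in Cd8a-only and 3.34 and 15.6 CPM in Cd8b1-positive cells of samples 1 and 2. In the comparison of these kinds of cell, none of the 5 tested genes of the list was called, with a median log2 ratio of 0.76. Between naive-only and cytotoxic-only cells 1 of 5 was called, Tiparp, which was lower in naive-only cells at 128 and 113 CPM against 531 and 259 CPM in samples 1 and 2, from 17 and 13 UMIs.

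Homing receptors came next. Itga4, a chain of the integrin that directs T cells to the gut, was 312, 371, 581 and 734 CPM, and Itgb7, its partner, 190, 180, 143 and 128 CPM. Ccr9, the receptor for the small intestinal chemokine CCL25, did not exceed 27.0 CPM, and Gpr15, a colon homing receptor, had a UMI in sample 1 only. The 12 genes of this list summed to 1087, 1036, 1609 and 1689 CPM in CD8, 944, 967, 1566 and 1883 CPM in CD4 and 1521, 1148, 1450 and 1641 CPM in gamma-delta T cells, and NK cells were above all 3 at 2936 to 3570 CPM.

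Of the cytokine receptors, Il2rb, the beta chain shared by the interleukin-2 and interleukin-15 receptors, was found in 83.2% to 88.6% of CD8 T cells at 401, 598, 425 and 433 CPM, and Il12rb2, a chain of the interleukin-12 receptor, was 357, 456, 290 and 375 CPM against 46.8, 128, 39.5 and 63.5 CPM in all other cells. The list of 14 summed to 3350, 3691, 3203 and 3549 CPM, with little spread between samples. Against CD4 T cells Il18r1 was lower in CD8 T cells, and against NK cells Il2rb, Il18r1 and Il18rap were lower.

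Lists of cell states were compared by their sums. The 16 cell cycle genes summed to 2489, 2465, 4285 and 2849 CPM in CD8 T cells, led by Hmgb2, and to 2522, 1999, 3901 and 3450 CPM in CD4 T cells, sample 3 being highest in both. Within Cd8b1-positive cells the sums were 2593, 2877, 4847 and 3121 CPM. Within Cd8a-only cells they were 2360, 2245, 1467 and 1640 CPM, where sample 3 was lowest. Counted by cells, sample 3 did not stand apart, since a UMI of the division genes Mki67 or Top2a was found in 35.5%, 27.4%, 34.2% and 27.4% of CD8 T cells, against 13.5%, 14.3%, 13.4% and 12.5% of B cells. The 20 interferon response genes summed to 1378, 759, 995 and 959 CPM in CD8 T cells, highest in sample 1, as in CD4 T cells (2032, 1254, 1513 and 1199 CPM) and all other cells (2393, 1110, 1376 and 1074 CPM). In CD8 T cells the high value of sample 1 was found in the Cd8b1-positive cells (1878, 979, 975 and 955 CPM), where the other samples lay close together. It was absent from the Cd8a-only cells (761, 642, 1092 and 979 CPM), of which sample 3 held 15. In the CD8 T cells of sample 1 Ifi27l2a stood at 338 CPM, and at 100 to 104 CPM in the other samples. Immediate early genes (16) summed to 4374, 4458, 3800 and 4410 CPM, led by Jund, heat shock genes (10) to 2820, 2705, 2691 and 2303 CPM, and polyamine and arginine genes (11) to 1349, 1366, 1388 and 1196 CPM, led by Oaz1. All other cells held more immediate early transcript than the CD8 T cells in every sample, at 5837, 6295, 7192 and 7801 CPM.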

How the data were processed

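Deposited UMI counts per gene and cell from 4 colonic leukocyte samples were used. According to the submitters' processing notes the authors used Cell Ranger 5.0.0, STAR, Seurat and build mm10, while the deposited count files name Cell Ranger 7.0.1 in their header. Whether intronic reads were counted is not given in the sources used here. Cells with at least 200 genes and under 20% mitochondrial UMIs were retained. CD8, CD4, gamma-delta T, NK and B cells were chosen by marker UMIs, and UMIs were summed per sample and cell type and scaled to CPM. Genes with at least 50 UMIs over the compared cells were tested, without those that chose the cells, and called at 2-fold with exact Poisson 95% intervals apart in every compared sample, since cells are not replicates. The rule for calls was also run on simulated data, and the outcome of that run is not reported here. The 10 (CD4) or 5 (other comparisons) genes named per direction have the largest smallest log2((CPM a + 10)/(CPM b + 10)) over samples. Across samples, the 10 genes of largest range were named. Lists covered 270 measured genes. A gene of the planned naive sum and list and a gene of the AhR list are not reported here, and both were left out of all sums and counts of those lists. Members, lists and alternatives were chosen with earlier results of these data known. No doublet caller was applied to the main values. Scrublet, at 0.8% per 1000 cells, served as an alternative. Thinned values used 1000 UMIs per cell. Of 32285 gene IDs 32158 were placed by GENCODE M21 (GRCm38). Software was numpy 2.4.6, scipy 1.17.1, pandas 2.3.3, scanpy 1.11.5 and Python 3.11.15.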

Additional observations from a re-analysis of the deposited data

How the results depend on the processing

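Of 202 alternative values 160 stayed within 1.5 times the count or the spread between samples and 42 moved. The median share of CD8 T cells over the samples, 1.05%, was 0.746% with at least 3 and 1.38% with at least 1 Cd8 UMI, and 5.68% of Cd3-positive cells. Thinning to 1000 UMIs lowered the median Cd8b1-positive share from 68.4% to 20.6%, the naive share from 51.1% to 9.93% and the cytotoxic share from 93.9% to 82.7%, as fewer UMIs per cell were counted. Calls against CD4 T cells numbered 76 with Cd8b1-positive cells alone, and calls against NK cells 356 at 1.5-fold. Cd8a-only calls numbered 26 with Trac-positive cells and 2 after thinning, and the cause was not tested. Of the 10 genes of largest range 6 remained without the richest cell. Leaving out each sample in turn gave 254 to 583 CD8 T cells, median shares of 0.708% to 1.40%, Cd8b1-positive shares of 58.1% to 78.8%, naive shares of 47.8% to 54.4%, cytotoxic shares of 92.9% to 94.9%, and 151 to 214 calls against CD4 T cells, 65 to 165 against gamma-delta T cells (165 without sample 2), 260 to 303 against NK cells and 64 to 119 for Cd8a-only cells. Allowing 1 UMI of the other-lineage genes gave 830 CD8 T cells. With 62 to 391 CD8 T cells per sample, genes of few UMIs could not be compared. Kinds of cell were compared in pairs within samples, and a call needed the same direction in every compared sample. No paired test across samples was run. Groups of samples were not compared, because the samples have no labelled groups.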
